A study of Mus musculus with 19 samples.

Results

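The expression of 38 mitosis genes was followed in mouse liver that carries an inducible AP-1 transgene, in the liver tumours that arose there and in control liver. The genes were chosen by symbol, as a list of well known factors of chromosome condensation, the spindle, the kinetochore, mitotic entry, anaphase and cell separation. They are 38 of the 55421 genes in the count table, and the rule uses no measured value. All animals were adult male C57BL/6 mice. Mutants express a c-Jun and Fra-2 dimer, an AP-1 transcription factor encoded by Jun and Fosl2, once doxycycline is withdrawn, and withdrawal took place at 3 weeks of age. The controls were littermates given the same treatment. The libraries comprise livers of 3 mutants and 6 controls collected 2 months after withdrawal. Those collected 9 months after it comprise 4 visible tumours and 3 pieces of macroscopically tumour-free liver from 3 mutants, and livers of 3 controls. Mutant 1 is the source of 2 of the tumours and mutants 2 and 3 of 1 tumour apiece, so the 19 libraries stand for 15 animals, and every n counts animals. The sources used here do not give the promoter that drives the transgene or the cells it is active in. The labels call the tissue mostly hepatocytes, or mostly transformed hepatocytes in tumours.

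Mitosis divides the copied chromosomes between a pair of daughter cells. Cyclin-dependent kinase 1 with cyclins A and B drives entry, the aurora and polo-like kinases build the spindle, and kinetochores hold each chromosome to it until a checkpoint lets the anaphase-promoting complex act. Transcripts of these genes build up together towards cell division and are low in resting cells. Hepatocytes of the adult liver rarely divide, but can return to the cell cycle after injury, and many become polyploid by cycling without completing division.

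Fosl2 was high in every mutant library and low in every control, as labelled, whereas Jun was not low in all controls. Fosl2 reached 640 to 887 CPM (counts per M, or mega, counts of the library after TMM scaling) in 2-month mutants, 405 to 758 CPM in tumours and 788 to 936 CPM in tumour-free tissue, against 8.37 to 19.8 CPM in all 9 controls. Jun had 533 to 683 CPM in 2-month mutants and 10.5 to 25.8 CPM in 2-month controls, without overlap. At 9 months Jun had 334 to 634 CPM in tumours and 437 to 785 CPM in tumour-free tissue, against 387, 40.4 and 22.9 CPM in controls 1, 2 and 3. Control 1 thus lay inside the tumour range for Jun, and Jun was not called in tumour-free tissue (2.08 ± 1.10 on the log2 scale, adjusted p = 0.204) or in tumours (1.71 ± 1.03, adjusted p = 0.268) by edgeR's quasi-likelihood test. The sources used here do not say whether reads of the transgene itself are counted under Fosl2 and Jun. Total counts per library ran from 14.3 to 22.1 M. The 8 hepatocyte markers, such as Alb and Hnf4a, were detected in every library. Their summed level was 37845 to 54256 CPM in 2-month mutants, 45202 to 70478 CPM in tumours and 41894 to 42902 CPM in tumour-free tissue, against 110508 to 134754 CPM in controls. Most of that sum was Alb, at 26701 to 36074 CPM in 2-month mutants and 86162 to 106278 CPM in 2-month controls. Hnf4a overlapped between these groups, at 745 to 908 CPM and 559 to 1040 CPM (0.17, adjusted p = 0.493). Of the 8 markers, 4 were called lower at 2 months (Apoa1, Alb, Serpina1a and Ttr). In tumour-free tissue 3 were called lower (37.5%, against 16.8%) and in tumours 3 (37.5%, against 11.3%). None was called higher in any of these comparisons. The 7 macrophage markers summed to 492 to 749 CPM in 2-month mutants and 269 to 545 CPM in 2-month controls. They summed to 238 to 468 CPM in tumours, 431 to 489 CPM in tumour-free tissue and 228 to 283 CPM in 9-month controls. Of these markers 1 was called higher at 2 months (14.3%, against 22.3% of all genes) and none lower. In tumour-free tissue 5 were called higher (71.4%, against 18.1%) and none lower. In tumours these markers did not move together. Of the 7, 3 were called higher (42.9%, against 13.8% of all genes) and none lower, while their median log2 change was -0.59. In the tumour of mutant 2, Cd68 had 150 CPM (10.5 to 15.9 CPM in 9-month controls) and Clec4f had 2.23 CPM (76.4 to 95.2 CPM). The 7 stellate cell markers summed to 361 to 507 CPM in 2-month mutants and 217 to 341 CPM in 2-month controls. They summed to 287 to 509 CPM in tumours, 391 to 526.2 CPM in tumour-free tissue and 230 to 305 CPM in 9-month controls. Of the 7, 3 were called higher at 2 months, 4 in tumour-free tissue and 2 in tumours, and none lower. Those shares were 42.9%, 57.1% and 28.6%, against 22.3%, 18.1% and 13.8% of all genes. The 6 bile duct markers summed to 152 to 601 CPM in 2-month mutants and 75.5 to 134 CPM in 2-month controls, and to 93.0 to 3085 CPM in tumours, 93.0 to 242 CPM in tumour-free tissue and 75.7 to 142 CPM in 9-month controls. Spp1 alone had 2352 and 2994 CPM in the tumours of mutant 1. Krt19 had 0.0384 to 1.48 CPM in tumours and 0.905 to 2.76 CPM in 9-month controls. Of the 6 markers, 2 were called higher at 2 months, 1 in tumour-free tissue and 2 in tumours, and none lower. These shares were 33.3%, 16.7% and 33.3%, against 22.3%, 18.1% and 13.8% of all genes. The 8 T and NK cell markers summed to 2.98 to 13.3 CPM over the 19 libraries, the 6 B and plasma cell markers to 2.46 to 13.3 CPM and the 8 neutrophil and precursor markers to 1.31 to 8.33 CPM. Of the neutrophil markers, Ctsg had no count in 2-month mutants or in either control group, Elane none in 2-month mutants and Ly6g none in controls. The part that any of these cells have in the results was not tested, and in whole tissue more dividing cells and more RNA per dividing cell cannot be told apart. Among 4 genes of lung, stomach and pancreas, Sftpc of lung had 7.27 CPM in the tumour-free sample of mutant 2. It had no count in any other library, and the source of these reads was not tested.

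Levels of the mitosis genes were low everywhere and ordered by group. Over the 38 genes the median level per library was 1.03, 1.42 and 2.10 CPM in the 2-month mutants, while the 2-month controls ran from 0.434 to 0.669 CPM. At 9 months it was 2.74, 3.09, 3.26 and 3.18 CPM in the tumours, 2.66, 2.22 and 1.59 CPM in tumour-free tissue, and 0.694, 1.67 and 0.451 CPM in the controls. The 2-month groups did not overlap, every tumour lay above every other library, and 1 control at 9 months lay within the range of the mutants. The summed level averaged 66.0 ± 22.01 CPM in 2-month mutants (SD, n = 3) and 34.3 ± 4.52 CPM in 2-month controls (n = 6). It averaged 136 ± 6.53 CPM in tumours, 90.3 ± 19.99 CPM in tumour-free tissue and 51.3 ± 27.5 CPM in 9-month controls (n = 3 each). Tumours had the highest group mean for 37 of the 38 genes and 2-month controls the lowest for 33. For 26 genes the full order was the same: tumour, tumour-free, 2-month mutant, 9-month control, 2-month control. That order crosses the 2 ages, which were sequenced in separate runs. Its step between the control groups leaned on 9-month control 2. Over the genes tested, the median log2 change between the controls was 0.68 with it and -0.03 without it.

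**Figure D1:**
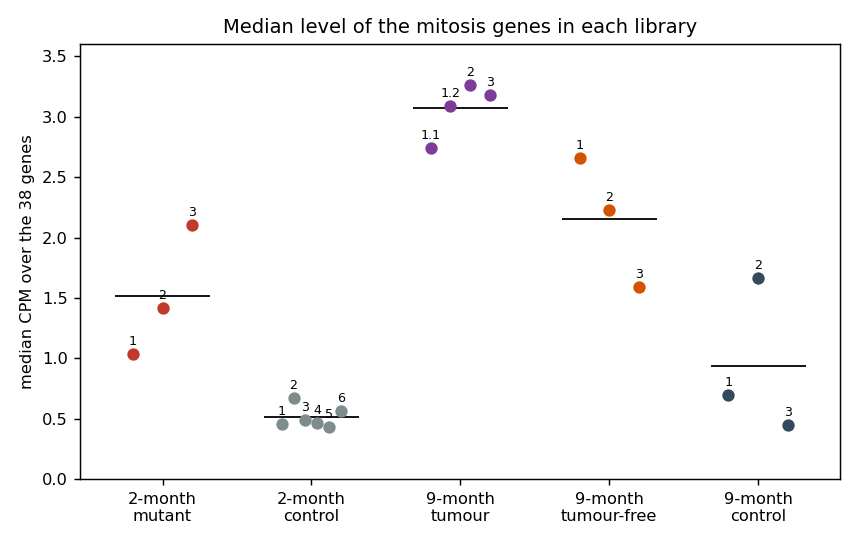
Median level of the 38 mitosis genes in each library, in CPM on a linear axis from 0, by group, with bars at the mean over libraries. Points carry the number of the animal (for mutant 1 also of its tumour); the 4 tumours lie between 2.74 and 3.26 CPM, and 9-month control 2 at 1.67 CPM lies apart from the other 9-month controls at 0.694 and 0.451 CPM.

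The second 9-month control stands apart from its group and bears on every comparison at that age. It had the highest level of the 3 controls for all 38 genes, with a summed level of 82.7 CPM, while control 1 had 39.3 CPM and control 3 had 31.8 CPM. In the same library the macrophage markers summed to 283 CPM (240 and 228 CPM in controls 1 and 3) and the bile duct markers to 142 CPM (75.7 and 91.6 CPM). Most of that bile duct sum was Spp1, at 115 CPM (44.9 and 61.8 CPM), while Krt19 was at 0.905 CPM (2.37 and 2.76 CPM). The T and NK cell markers of control 2 summed to 4.13 CPM (5.90 and 5.86 CPM) and its erythroid precursor markers to 212 CPM (289 and 290 CPM). For the 38 genes against 9-month controls, counts, medians and the changes of the genes given library by library are shown with and without it. Control 2 was picked out by its levels of these same genes, so larger changes without it follow from that choice. Such values are a description and no support for the calls. Counts and medians are also given without control 1 or control 3, but the changes of single genes are not.

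The promoters of these genes share letters that are known from cell cycle genes. These are the cell cycle genes homology region (CHR, letters TTTGAA or TTCGAA), which is bound by the DREAM and MuvB complexes, and the CCAAT box (letters CCAAT), which is bound by NF-Y. RefSeq gave a promoter window, from 250 bases before the start site to 50 after it, for 32 of the 38 genes. On either strand, 24 of these 32 windows (75.0%) held a CHR, against 19.4% of all 27025 mouse windows, and 25 (78.1%) held a CCAAT box, against 37.9%. Both were present in 65.6% of the 32 windows and 7.7% of all. The CHR lay within 50 bases of the start site in 22 of the 24. The AP-1 letters TGACTCA were in none of the 32 and in 5.17% of all windows, and the E-box CACGTG, which Myc and other factors bind, was in 2 (6.25%) and in 7.24% of all. A match is a run of letters, not a shown binding site, and the other letters that AP-1 and Myc can bind were not searched. The 250 bases before the start site (GRCm38.p6, RefSeq, 5′ to 3′) are shown for 6 roles, in each for the gene with the smallest adjusted p at 2 months among those with a window, and for Spc25, the exception among the genes, chosen after its values were seen. Capitals mark the CHR and the CCAAT box on either strand.
Ccnb2 (chr9:70421555-70421804, minus strand): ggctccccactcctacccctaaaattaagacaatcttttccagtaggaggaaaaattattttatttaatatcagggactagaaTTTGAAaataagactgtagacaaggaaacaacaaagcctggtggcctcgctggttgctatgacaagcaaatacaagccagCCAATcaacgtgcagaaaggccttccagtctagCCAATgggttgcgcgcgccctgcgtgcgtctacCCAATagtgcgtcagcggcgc
Aurka (chr2:172370571-172370820, minus strand): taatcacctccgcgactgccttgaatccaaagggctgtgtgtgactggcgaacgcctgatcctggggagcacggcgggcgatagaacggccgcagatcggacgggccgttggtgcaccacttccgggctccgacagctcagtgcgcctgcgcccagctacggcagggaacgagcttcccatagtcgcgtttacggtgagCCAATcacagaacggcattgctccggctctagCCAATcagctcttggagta
Hmmr (chr11:40733438-40733687, minus strand): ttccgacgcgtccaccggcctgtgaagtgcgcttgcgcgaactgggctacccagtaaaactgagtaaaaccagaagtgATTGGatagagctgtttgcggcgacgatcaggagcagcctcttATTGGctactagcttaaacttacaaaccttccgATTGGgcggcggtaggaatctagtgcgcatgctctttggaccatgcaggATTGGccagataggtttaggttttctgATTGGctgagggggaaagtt
Cenpe (chr3:135212313-135212562, plus strand): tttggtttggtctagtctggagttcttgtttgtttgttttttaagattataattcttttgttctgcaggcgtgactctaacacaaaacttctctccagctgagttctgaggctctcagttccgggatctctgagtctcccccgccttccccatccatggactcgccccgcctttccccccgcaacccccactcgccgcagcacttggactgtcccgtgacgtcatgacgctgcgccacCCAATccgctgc
Ube2c (chr2:164769679-164769928, plus strand): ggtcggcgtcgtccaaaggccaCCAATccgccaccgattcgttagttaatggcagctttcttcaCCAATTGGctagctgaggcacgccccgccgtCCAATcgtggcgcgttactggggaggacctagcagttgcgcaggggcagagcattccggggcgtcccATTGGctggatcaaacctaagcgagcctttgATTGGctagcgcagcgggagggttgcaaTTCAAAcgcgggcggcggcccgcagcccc
Prc1 (chr7:80294201-80294450, plus strand): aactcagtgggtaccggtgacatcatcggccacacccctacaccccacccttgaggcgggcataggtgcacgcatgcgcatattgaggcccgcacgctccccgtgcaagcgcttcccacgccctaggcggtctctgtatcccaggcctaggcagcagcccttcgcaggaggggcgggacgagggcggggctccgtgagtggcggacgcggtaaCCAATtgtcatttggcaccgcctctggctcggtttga
Spc25 (chr2:69206214-69206463, minus strand): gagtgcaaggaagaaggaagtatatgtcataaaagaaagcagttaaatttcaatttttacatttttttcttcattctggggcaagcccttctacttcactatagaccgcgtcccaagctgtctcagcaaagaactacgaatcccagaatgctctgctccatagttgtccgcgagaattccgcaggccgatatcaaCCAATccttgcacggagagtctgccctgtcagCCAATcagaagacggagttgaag

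In 5 of these genes a CHR lies at or after the start site and is therefore absent from, or cut by the end of, the stretch above. It is shown with its flanks, with the CHR in capitals, and its first base lies at position 5 for Ccnb2, 33 for Aurka, 9 for Hmmr, -5 for Prc1 and 25 for Spc25. Positions count from 1 at the first transcribed base, with -1 before it.
Ccnb2 (chr9:70421536-70421559, minus strand): ggcgcggtaTTTGAAtcgcggacc
Aurka (chr2:172370524-172370547, minus strand): aggagaaccTTTGAAttgtaacgg
Hmmr (chr11:40733415-40733438, minus strand): tgaggtaaaTTTGAAttcaggcga
Prc1 (chr7:80294437-80294460, plus strand): ctggctcggTTTGAAttccgcggg
Spc25 (chr2:69206175-69206198, minus strand): ggtggagagTTTGAAattgaaaga

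These lines show that the cyclin, kinase and spindle genes carry 2 or more CCAAT boxes upstream of a CHR near the start site, and that Spc25 has the same pair of elements. Cenpe has a CCAAT box and no CHR in its window, and in Ube2c the CHR is on the opposite strand at position -29.

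At 2 months, before the stage at which tumours were sampled, most mitosis genes were higher in mutants than in controls. With edgeR's quasi-likelihood test and a Benjamini-Hochberg adjusted p under 0.05 over all genes, 22 genes were called higher and 1, Spc25, was called lower. Of all 13773 genes tested, 22.3% were called higher and 20.4% lower. The median change of the 28 mitosis genes tested was 1.51 on the log2 scale, against 0.01 over all genes, and the genes called higher had 1.77 to 4.66 times the level of the controls in the fit. Every mutant lay above every control for 26 of the 38 genes. Among the 28 tested it was 21, against 19.3% of all genes tested. Every mutant lay below every control for 1, Spc25, against 19.1%. The other 10 genes (Bub1, Ccnb1, Cenpf, Kif4, Ttk, Ndc80, Nuf2, Melk, Dlgap5 and Troap) had too few reads to be tested. A further 13 reached the expression filter only with the help of the mutants, and 12 of them were called higher. Through the mutants alone 7 passed it (Aurkb, Cdc20, Cenpe, Hmmr, Plk1, Tpx2 and Ube2c), and all 7 were called. Such genes had to be higher there to be tested, so their calls are no separate support. Of the 15 that the controls alone would have brought into the test, 10 (66.7%) were called higher. Without the filter, 28 of the 38 were called higher and 1 lower, with 11.9% of all genes higher. Among the 3 mutants, mutant 3 had the highest level for 32 genes and mutant 1 the lowest for 33. Without mutant 3 the number called was 15, with 16.5% of all genes higher.

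**Figure D2:**
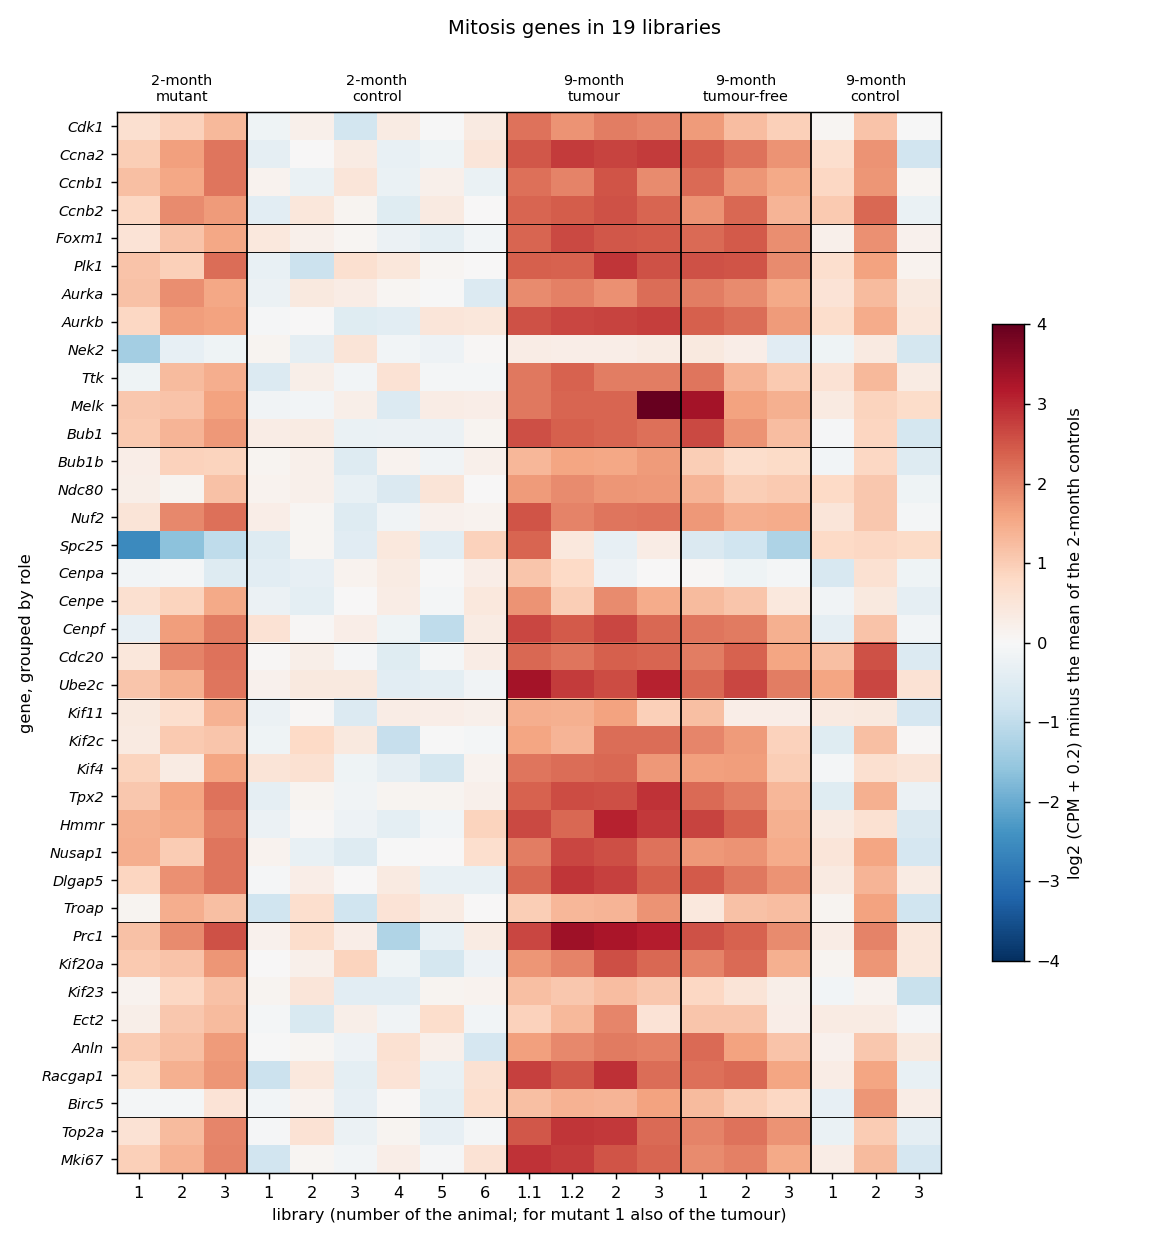
Level of each mitosis gene (rows, grouped by role) in each of the 19 libraries (columns, by group), as log2 of CPM plus 0.2 minus the mean of the 2-month controls. Red is higher and blue lower; most rows deepen towards the tumours, Spc25 is blue in the 2-month mutants and tumour-free tissue, and 9-month control 2 is redder than the other 2 controls of its age.

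Cyclins and their kinase rose at 2 months. Ccna2, the cyclin of S phase and mitotic entry, had 2.01, 3.28 and 4.63 CPM in mutants and 0.654 to 1.35 CPM in controls (median 0.853). Ccnb2, a B-type cyclin that partners Cdk1, had 1.06, 2.46 and 2.13 CPM in mutants and 0.310 to 0.775 CPM in controls (median 0.544). All mutants were above all controls for both, with log2 changes of 1.83 ± 0.308 (SE, adjusted p = 0.000681) for Ccna2 and 1.81 ± 0.350 (adjusted p = 0.00169) for Ccnb2. Cdk1, the kinase that drives entry into mitosis, had 1.95, 2.46 and 3.19 CPM in mutants and 0.633 to 1.58 CPM in controls (median 1.30). Its change of 1.05 ± 0.291 was smaller (adjusted p = 0.0137), again without overlap. Ccnb1, the other B-type cyclin, had 0.354, 0.504 and 0.879 CPM in mutants, while 3 of the 6 controls had no count and the highest had 0.141 CPM. A control library with no count allows up to 0.211 to 0.233 CPM at 3 counts, so the groups did not overlap, but Ccnb1 was too low to be tested. Foxm1, a transcription factor that activates genes of this set, had 0.945, 1.51 and 2.08 CPM in mutants and 0.395 to 0.851 CPM in controls (median 0.579). The groups were apart and the change was 1.34 ± 0.320 (adjusted p = 0.00604).

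Spindle and kinase genes gave the smallest adjusted p-values at 2 months. Of these, Tpx2, Hmmr, Aurkb and Plk1 reached the expression filter through the mutants alone. Tpx2, which activates Aurka on the spindle and nucleates microtubules, had 1.42, 2.08 and 3.24 CPM in mutants and 0.393 to 0.675 CPM in controls (median 0.626). Its lowest mutant had more than the highest control and the change was 1.97 ± 0.301 (adjusted p = 0.000346). Aurka, the aurora kinase of the spindle poles, had 1.71, 2.84 and 2.267 CPM in mutants and 0.375 to 0.916 CPM in controls (median 0.665). It changed by 1.76 ± 0.285 (adjusted p = 0.000515), with no overlap. Hmmr, a spindle-associated hyaluronan receptor, had 1.06, 1.13 and 1.71 CPM in mutants and 0.155 to 0.675 CPM in controls (median 0.224). All controls but number 6 were at or below 0.282 CPM, and the change was 2.15 ± 0.401 (adjusted p = 0.00135). Aurkb (1.86 ± 0.399) and Plk1 (2.00 ± 0.482), kinases of chromosome attachment and of spindle assembly, were also called, as was the microtubule-bundling gene Nusap1 (1.97, adjusted p = 0.00187). Kif11, the motor that pushes the spindle poles apart, rose less (0.99, adjusted p = 0.024), and Kif2c, which removes tubulin from microtubule ends, did not pass (1.07, adjusted p = 0.0815). Nek2, a kinase of centrosome separation, had 1.24, 2.77 and 3.05 CPM in mutants and 2.68 to 5.14 CPM in controls, with overlap and a change of -0.59 that did not pass (adjusted p = 0.132).

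Both genes of the anaphase-promoting complex rose at 2 months, and both reached the expression filter through the mutants alone. Ube2c, its ubiquitin-conjugating enzyme, had 0.827, 1.07 and 1.90 CPM in mutants and 0.155 to 0.423 CPM in controls (median 0.276). Cdc20, its activator at anaphase, had 0.767, 2.58 and 2.96 CPM in mutants and 0.310 to 0.675 CPM in controls (median 0.508). Neither overlapped, and the changes were 2.12 ± 0.388 for Ube2c (adjusted p = 0.00117) and 2.01 ± 0.396 for Cdc20 (adjusted p = 0.00189). Of the 7 cytokinesis genes 5 were called, among them Prc1, which bundles midzone microtubules and had the largest change of any called gene in the set (2.22, adjusted p = 0.00229), and the contractile ring scaffold Anln (1.56, adjusted p = 0.00274). Kif23, the midzone motor, just missed the threshold (0.85, adjusted p = 0.0503), and Birc5, the chromosomal passenger known as survivin, overlapped between groups (0.15, adjusted p = 0.733). The chromosome genes Mki67 and Top2a were both called. Mki67, which coats mitotic chromosomes and is the usual stain for cycling cells, had 3.01, 4.16 and 6.38 CPM in mutants and 0.785 to 2.25 CPM in controls (median 1.49). Top2a, the enzyme that untangles DNA before separation, had 2.13, 3.53 and 5.83 CPM in mutants and 1.03 to 2.11 CPM in controls (median 1.29). For both genes the lowest mutant was above the highest control, with changes of 1.58 ± 0.308 (adjusted p = 0.00175) for Mki67 and 1.47 ± 0.318 (adjusted p = 0.00338) for Top2a.

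The kinetochore was the most divided group. Cenpe, a motor that moves chromosomes to the spindle equator, had 0.649, 0.819 and 1.34 CPM in mutants and 0.211 to 0.525 CPM in controls. It changed by 1.41 (adjusted p = 0.0085), and reached the expression filter through the mutants alone. The checkpoint gene Bub1b changed by 0.82 (adjusted p = 0.0333). Spc25, a subunit of the NDC80 complex that couples kinetochores to microtubules, went the other way, with 0.472, 1.07 and 1.76 CPM in mutants and 2.55 to 7.35 CPM in controls (median 3.35). Every mutant was below every control and the change was -1.85 ± 0.470 (adjusted p = 0.00891). Without single libraries or with the other settings its adjusted p lay between 0.000194 and 0.0528, and only with the replicate number as a block did the call fail. Cenpa, the centromeric histone, had 5.79, 5.99 and 4.35 CPM in mutants and 4.65 to 7.99 CPM in controls, which overlapped (-0.25, adjusted p = 0.368).

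**Figure D3:**
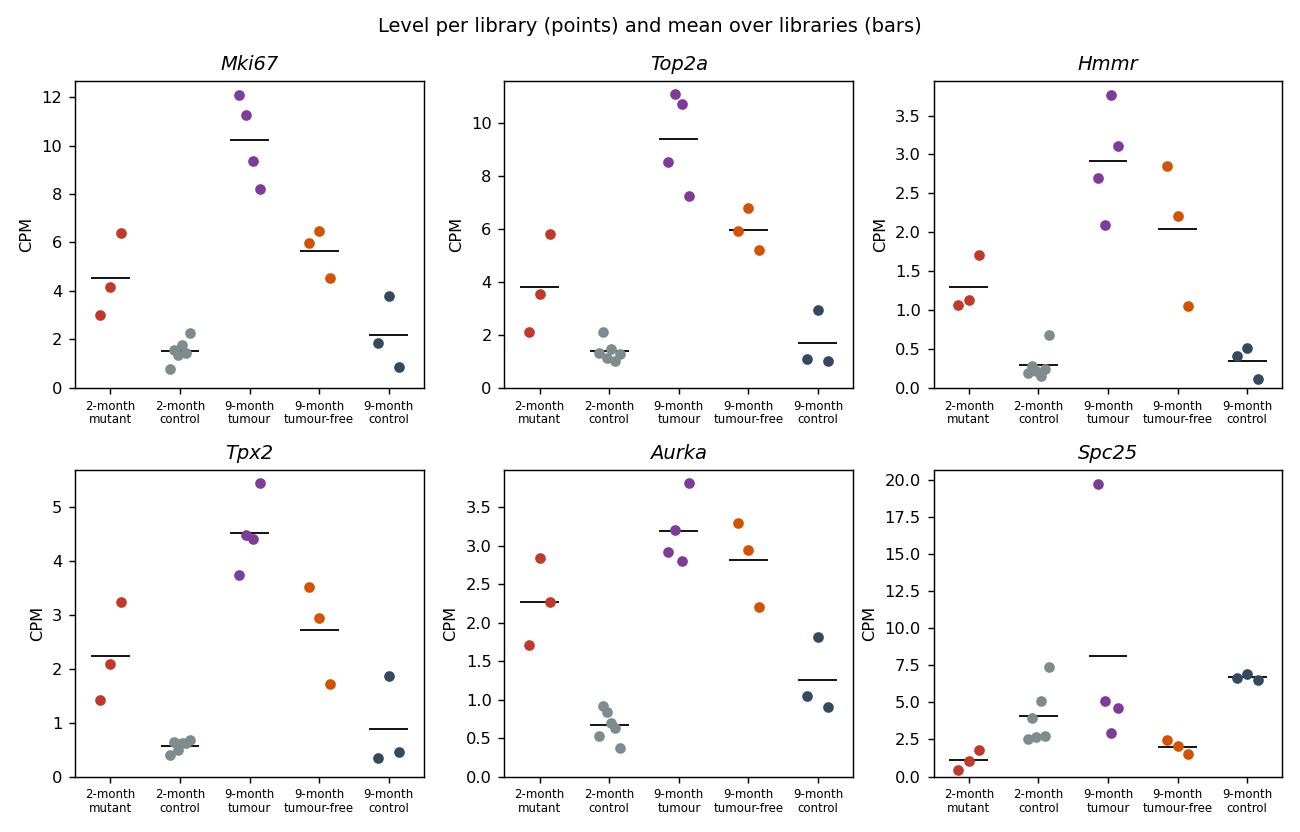
Level in CPM (linear axes from 0) of 6 mitosis genes in every library, by group, with bars at the mean over libraries. By their means, Mki67, Top2a, Hmmr, Tpx2 and Aurka are lowest in the 2-month controls and highest in the tumours, while single libraries of different groups can overlap. The means of Spc25 are lowest in 2-month mutants and tumour-free tissue, and it reaches 19.7 CPM in 1 tumour of mutant 1.

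In tumour-free mutant liver at 9 months, 10 of the 38 genes were called higher than in 9-month controls and 1, again Spc25, was called lower. Of all 14352 genes tested, 18.1% were called higher and 16.8% lower, and the 27.0% of the 37 tested genes called higher (Ttk could not be tested) is to be read beside that background. The median change was 1.28 on the log2 scale, against -0.01 over all genes, with a median SE of 0.491 for the mitosis genes and 0.209 for all. Every tumour-free sample lay above every control for 17 genes, against 25.6% of all genes tested, and below every control for Spc25, against 23.6%. The called genes were Top2a, Hmmr, Aurka, Aurkb and Plk1, which were also among the 22 called at 2 months, and Bub1, Cenpf, Kif4, Melk and Dlgap5, which could not be tested there. Of the 37 genes tested, 23 reached the expression filter only with the help of the tumour-free samples, and 8 of the 10 called were among them. Bub1, Hmmr, Kif4 and Melk passed it through these samples alone. Of the 14 that the controls alone would have brought into the test, 2 (14.3%), Aurka and Top2a, were called higher, a share below that of all genes. Without control 2 the count was 25, of which 9 were among those 10, the median change was 1.83, and 17.5% of all genes were called higher. Without control 1 or control 3 the count was 2 each time, against 15.6% and 12.6% of all genes, and the median change was 0.997 and 0.887. The count was 2 without the tumour-free sample of mutant 1 and 3 without that of mutant 2, against 17.3% and 12.7% of all genes.

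Hmmr had 2.85, 2.21 and 1.06 CPM in tumour-free tissue and 0.405, 0.509 and 0.113 CPM in 9-month controls, a change of 2.55 ± 0.563 (adjusted p = 0.00931). Top2a had 5.92, 6.81 and 5.20 CPM in tumour-free tissue and 1.10, 2.94 and 1.01 CPM in controls, a change of 1.81 ± 0.410 (adjusted p = 0.0103). Neither gene overlapped between the groups. Dlgap5, which stabilises spindle microtubules near chromosomes, had 1.67, 1.28 and 0.970 CPM in tumour-free tissue and 0.231, 0.679 and 0.225 CPM in controls. Plk1 had 2.68, 2.63 and 1.63 CPM in tumour-free tissue and 0.578, 1.30 and 0.338 CPM in controls, and Cenpf, a large kinetochore protein, had 1.58, 1.51 and 0.882 CPM in tumour-free tissue and 0.116, 0.679 and 0.169 CPM in controls. These 3 genes also did not overlap, with changes of 1.76 ± 0.493 (adjusted p = 0.0256), 1.63 ± 0.484 (adjusted p = 0.0322) and 2.01 ± 0.601 (adjusted p = 0.0329) in that order. Mki67 had 5.97, 6.46 and 4.54 CPM in tumour-free tissue and 1.85, 3.79 and 0.846 CPM in controls, which did not overlap but missed the threshold (1.38 ± 0.465, adjusted p = 0.0508). The cyclin genes were not called. Cdk1 had 4.34, 3.06 and 2.51 CPM in tumour-free tissue and 1.27, 2.88 and 1.18 CPM in controls, with control 2 inside the range of the mutants (0.88 ± 0.406, adjusted p = 0.13). Ccnb1 had 0.965, 0.619 and 0.485 CPM in tumour-free tissue and 0.231, 0.622 and 0.0564 CPM in controls, again with control 2 inside that range (1.16, adjusted p = 0.212). Foxm1 had 3.55, 4.06 and 2.65 CPM in tumour-free tissue and 0.694, 2.54 and 0.676 CPM in controls, just apart, and changed by 1.37 ± 0.514 (adjusted p = 0.071). Without control 2, the highest of the 3 controls for each of these genes, the fitted changes were larger for each. Those of Hmmr, Top2a, Dlgap5, Plk1 and Cenpf were then 2.95, 2.49, 2.48, 2.32 and 3.16, with adjusted p-values of 0.0127, 0.000467, 0.00699, 0.00608 and 0.00426 in that order. Mki67 (2.06, adjusted p = 0.0049), Cdk1 (1.42, adjusted p = 0.0175), Ccnb1 (2.22, adjusted p = 0.0421) and Foxm1 (2.31, adjusted p = 0.0021) passed in that fit, and Melk no longer did (adjusted p = 0.0687).

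**Figure D4:**
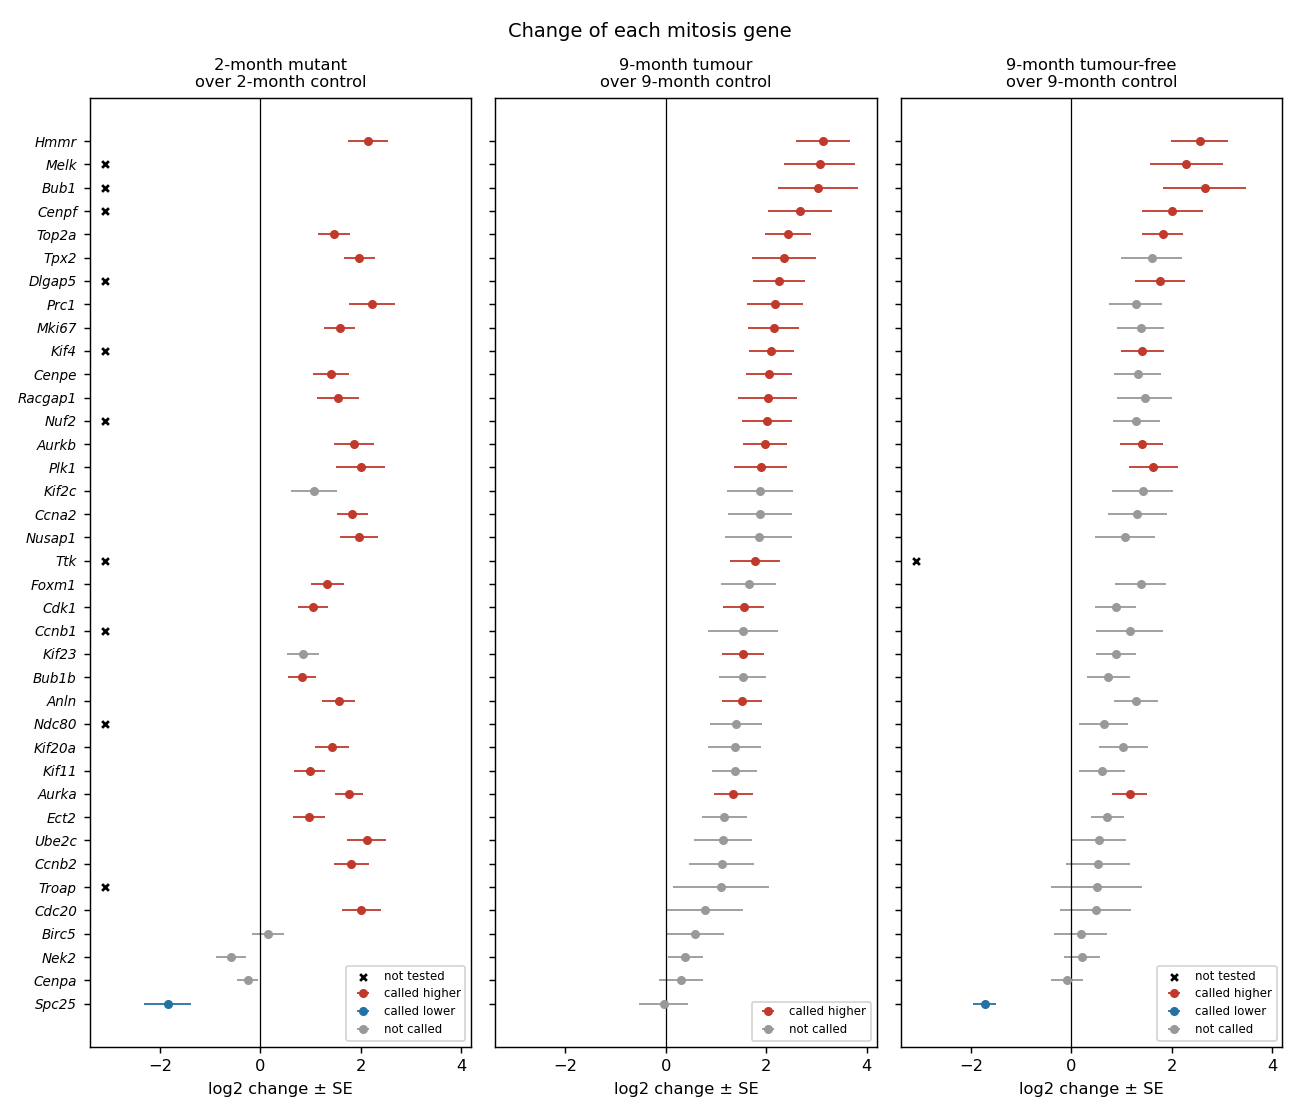
Fitted log2 change with its SE for each of the 38 genes in 2-month mutants over 2-month controls, 9-month tumours over 9-month controls and 9-month tumour-free tissue over the same controls, ordered by the tumour change. Red points were called higher (22, 20 and 10 genes), blue ones lower, grey ones were not called and crosses were not tested; Spc25 is blue in the outer panels and near 0 in tumours.

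In tumours, 20 of the 38 genes were called higher than in 9-month controls. No gene was called lower by edgeR or DESeq2, and Spc25, at -0.04, was the only one with a negative change. Of all 14332 genes tested, 13.8% were called higher and 11.3% lower. The median change was 1.71 on the log2 scale, against 0.01 over all genes. Every tumour lay above every control for 30 of the 38 genes, against 22.1% of all genes tested. The called genes included both chromosome genes, 6 of the 7 mitotic kinases (Nek2 was the exception), 4 of the 8 spindle genes and 4 of the 7 cytokinesis genes. Neither gene of the anaphase-promoting complex passed. Of the 38 genes, 23 reached the expression filter only with the help of the tumours, and 14 of the 20 called were among them. Bub1, Cenpe, Hmmr, Kif4, Melk and Ttk passed it through the tumours alone. Of the 15 that the controls alone would have brought into the test, 6 (40.0%) were called higher. Without control 2 the count was 24, of which 18 were among those 20, and the median change was 2.46, while 8.21% of all genes were called higher. Without control 1 the count was 2 and without control 3 it was 3, with the share of all genes at 6.79% and 5.1%. The median change was then 1.57 and 1.37. Without the tumours of mutant 1 the count was 13, against 12.7% of all genes.

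Hmmr had 2.70 and 2.10 CPM in the tumours of mutant 1, 3.76 CPM in that of mutant 2 and 3.11 CPM in that of mutant 3, and 0.405, 0.509 and 0.113 CPM in 9-month controls. All tumours were more than any control, with the largest change of the set (3.13 ± 0.544, adjusted p = 0.0076). Top2a had 8.53, 11.1, 10.7 and 7.23 CPM in tumours, in the same order, and changed by 2.43 ± 0.462 over the controls given above (adjusted p = 0.0106). Kif4, a chromosome-bound motor that shapes the midzone, had 1.83, 1.94, 2.03 and 1.32 CPM in tumours and 0.231, 0.509 and 0.451 CPM in controls. Aurkb had 2.57, 2.85, 2.88 and 3.07 CPM in tumours and 0.578, 1.13 and 0.451 CPM in controls. Both were clear of the controls in all tumours, with changes of 2.10 ± 0.443 for Kif4 (adjusted p = 0.0151) and 1.97 ± 0.431 for Aurkb (adjusted p = 0.0172). Cenpe had 1.70, 0.871, 1.80 and 1.32 CPM in tumours and 0.289, 0.509 and 0.225 CPM in controls, and changed by 2.06 ± 0.453 (adjusted p = 0.0175). Dlgap5 had 1.48, 2.26, 2.07 and 1.58 CPM in tumours, all above the controls, and changed by 2.25 ± 0.517 (adjusted p = 0.0205). Melk, a kinase found in dividing cells, had 1.04, 1.27, 1.27 and 4.47 CPM in tumours and 0.174, 0.339 and 0.282 CPM in controls (3.06 ± 0.706, adjusted p = 0.0205). The high value in the tumour of mutant 3 stood well above those of the other tumours.

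Mki67 had 12.1, 11.2, 9.37 and 8.20 CPM in tumours and 1.85, 3.79 and 0.846 CPM in controls, and changed by 2.14 ± 0.508 (adjusted p = 0.0229). Cdk1 had 6.00, 4.67, 5.49 and 5.17 CPM in tumours and 1.27, 2.88 and 1.18 CPM in controls, and changed by 1.55 ± 0.409 (adjusted p = 0.0315). For both, the lowest tumour was above control 2. Foxm1 had 3.70, 4.71, 4.18 and 4.12 CPM in tumours and 0.694, 2.54 and 0.676 CPM in controls, apart as well, but missed the threshold (1.65 ± 0.553, adjusted p = 0.0668). Ccnb1 had 0.914, 0.752, 1.19 and 0.701 CPM in tumours and 0.231, 0.622 and 0.0564 CPM in controls (1.54, adjusted p = 0.145). Cdc20 and Ube2c, which rose at 2 months, overlapped here, since control 2 had 3.96 and 2.83 CPM of them (0.78, adjusted p = 0.488 and 1.14, adjusted p = 0.192). Without control 2 the changes of Hmmr, Top2a, Kif4, Aurkb, Cenpe and Dlgap5 were 3.53, 3.10, 2.32, 2.46, 2.46 and 2.97, with adjusted p-values of 0.0261, 0.0088, 0.041, 0.0195, 0.03 and 0.0183 in that order. Mki67 (2.83, adjusted p = 0.0178) and Cdk1 (2.09, adjusted p = 0.0164) remained called, Foxm1 passed (2.58, adjusted p = 0.0145) and Melk did not (3.28, adjusted p = 0.0657). Ccnb1, Cdc20 and Ube2c still missed the threshold (2.601, 1.92 and 1.96, adjusted p = 0.0631, 0.118 and 0.0578). Counting the 2-month animals as well, 8 genes were called higher nowhere: Ccnb1, Cenpa, Kif2c, Birc5, Nek2, Ndc80, Spc25 and Troap. Tumours and tumour-free tissue were set against the same controls, so their calls are not independent of each other.

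**Figure D5:**
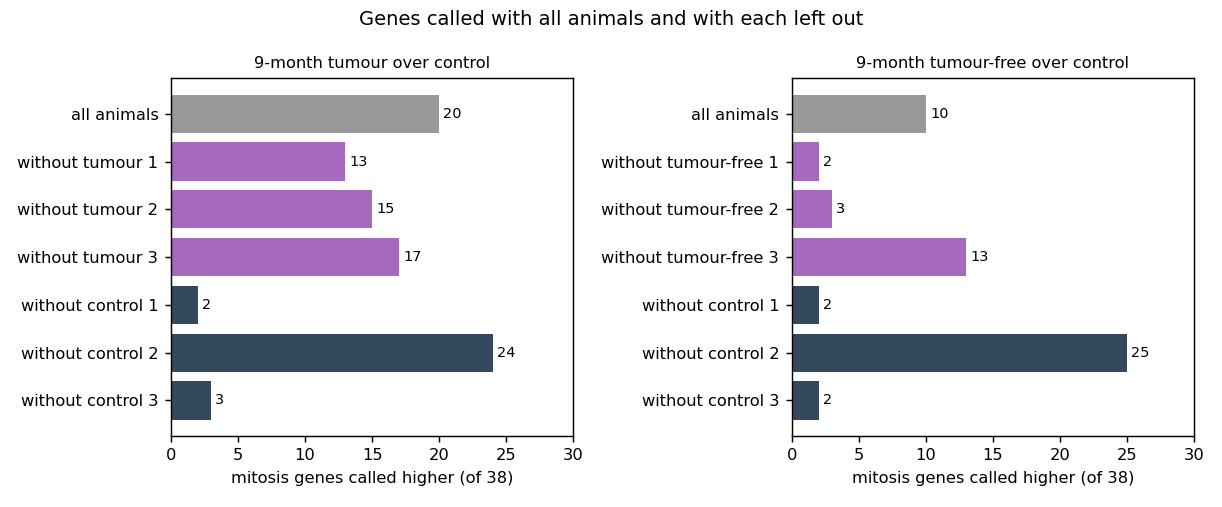
Number of the 38 genes called higher in 9-month tumours (left) and tumour-free tissue (right) over 9-month controls, with all animals and with each animal left out in turn. Leaving out control 2 raises the count to 24 and 25, and leaving out control 1 or 3 lowers it to 2 or 3.

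Spc25 showed a different order of groups from the other genes at 9 months too. It had 2.46, 2.09 and 1.499 CPM in tumour-free tissue and 6.65, 6.90 and 6.48 CPM in 9-month controls, which were far apart. The change of -1.73 ± 0.237 (adjusted p = 0.000896) had the smallest adjusted p of the 38 genes in that comparison, and its adjusted p was at most 0.0144 under every alternative. In the tumours it had 19.7, 5.07, 2.96 and 4.65 CPM, so 1 tumour of mutant 1 was above all controls and the other 3 below them. Without mutant 1 the change in tumours was -0.80 (adjusted p = 0.113). Without control 2 the change was -1.71 in tumour-free tissue (adjusted p = 0.00268) and -0.02 in tumours (adjusted p = 0.983). All tumours were above all tumour-free samples (1.70 ± 0.550, adjusted p = 0.395). Its partners in the NDC80 complex are Ndc80, Nuf2 and, outside the 38 genes, Spc24. Ndc80 and Nuf2 were too low to be tested at 2 months. Ndc80 overlapped with the controls there and in tumour-free tissue (0.64 ± 0.491, adjusted p = 0.346), and lay above them in tumours without passing (1.40 ± 0.508, adjusted p = 0.084). Nuf2 lay above the controls in all 3 comparisons, and was called in tumours (2.01 ± 0.497, adjusted p = 0.0257) but not in tumour-free tissue (1.29 ± 0.467, adjusted p = 0.0636). Spc24 rose by 1.24 ± 0.178 at 2 months (adjusted p = 0.000232) and did not pass in tumour-free tissue (0.04, adjusted p = 0.9) or tumours (-0.46, adjusted p = 0.297). Per kilobase of exon, Spc25 was the highest of the 38 genes in 2-month controls at 1.28 CPM per kb, against 0.0355 CPM per kb for Ndc80 and 0.0305 CPM per kb for Nuf2. In 2-month mutants the highest was Ccnb2 at 1.23 CPM per kb. Across the 19 libraries the log2 level of Spc25 had a correlation of 0.03 with the mean of the other genes, whereas the median gene had 0.92 and 33 of the 38 were over 0.8. Cenpa at 0.33 and Nek2 at 0.39 came next. These points share 5 groups and 2 sequencing runs and are given as a description.

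Tumours had more of the mitosis genes than tumour-free tissue of the same 3 mutants, but no single gene was called. All 38 changes were positive, with a median of 0.60 on the log2 scale, against 0.02 over all genes. Most of these genes vary together over the 19 libraries (median correlation 0.92), so their signs are not 38 separate results. Every tumour was above every tumour-free sample for 16 genes, against 5.87% of all genes tested. By edgeR and by DESeq2 0 of the 38 passed, with 11 at an unadjusted p under 0.05, and edgeR called 0.0137% of all genes, that is 2 of 14566. Prc1 had the smallest unadjusted p, with a change of 0.90 ± 0.259 (adjusted p = 0.331), and Mki67 changed by 0.78 ± 0.226 (adjusted p = 0.337).

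Per the study's design text, the 2-month and the 9-month samples were sequenced in separate runs, so between the ages time and sequencing run cannot be told apart. In 9-month controls against 2-month controls, 19 genes could be tested, 0 were called by edgeR and 2 by DESeq2, 6 had an unadjusted p under 0.05, and 7.29% of all genes were called higher and 4.64% lower. The median change was 0.68, against -0.01 over all genes. It was -0.03 without control 2 of the 9-month group, and 0.88 without control 1 or control 3 of that group. The mutant effect itself was compared between the ages as a difference of differences. For tumour-free tissue against the 2-month effect the median was -0.25 and for tumours 0.41. By edgeR 0 of 38 genes were called in each, with 2 at an unadjusted p under 0.05 in each. DESeq2 also called 0, but gave no adjusted p to 6 of the 38 for tumour-free tissue and to 3 for tumours. Over all genes edgeR called 0.462% higher and 1.05% lower for tumour-free tissue, and 0.891% higher and 1.73% lower for tumours. The median SE of these differences was 0.670 and 0.659. The smallest unadjusted p-values were those of Ube2c for tumour-free tissue (-1.58 ± 0.688, adjusted p = 0.342) and Spc25 for tumours (1.84 ± 0.721, adjusted p = 0.207). Without 9-month control 2 the medians were 0.32 and 0.99, without control 1 -0.34 and 0.19, and without control 3 -0.53 and 0.10.

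Other cell cycle genes were called in both directions, and several lists had shares near those of all genes, which were 22.3% higher and 20.4% lower at 2 months, 18.1% and 16.8% in tumour-free tissue, and 13.8% and 11.3% in tumours. Of 30 further spindle and cytokinesis genes none fell in the 3 comparisons with controls, while 8 of the 19 tested (42.1%) rose at 2 months, 8 of the 27 tested (29.6%) rose in tumour-free tissue and 7 of the 28 tested (25.0%) rose in tumours. Cit, a kinase of the late midbody, rose by 5.23 at 2 months (adjusted p = 9.71e-08), 5.04 in tumour-free tissue (adjusted p = 0.000376) and 5.25 in tumours (adjusted p = 0.0156). Among 35 further kinetochore and checkpoint genes, the 24 tested at 2 months gave 8 that rose (33.3%) and 3 that fell (12.5%). The 29 tested in tumour-free tissue gave 5 in each direction (17.2%) and the 34 tested in tumours gave 5 that rose (14.7%) and 2 that fell (5.88%), so that at 9 months the share that rose was near that of all genes. Cenpm, a subunit of the constitutive centromere network, rose by 4.59 at 2 months (adjusted p = 5.29e-08) and 3.89 in tumour-free tissue (adjusted p = 0.000118). Pmf1, a subunit of the MIS12 kinetochore complex, fell in all 3, with changes of -1.07 at 2 months, -1.28 in tumour-free tissue and -1.41 in tumours (adjusted p = 0.000234, 0.00145 and 0.00397). Hjurp, the chaperone that loads Cenpa, fell too, with changes of -0.64, -0.65 and -1.39 in the same order (adjusted p = 0.0046, 0.0316 and 0.0125). Of 20 condensin, cohesin and separation genes, the 18 tested at 2 months gave 2 that rose (11.1%) and 6 that fell (33.3%). All 20 were tested at 9 months, with 3 that rose (15%) and 1 that fell (5%) in tumour-free tissue, and 6 that rose and none that fell in tumours. Pttg1, or securin, which holds back sister separation, fell, with changes of -0.52 at 2 months (adjusted p = 0.00179) and -1.198 in tumour-free tissue (adjusted p = 0.0395). Of 22 further regulators of Cdk1 and the anaphase-promoting complex, the 21 tested at 2 months gave 5 that rose (23.8%, near the share of all genes) and 1 that fell (4.76%). The 21 tested in tumour-free tissue gave none that rose and 2 that fell (9.52%), and the 22 tested in tumours gave 2 that rose (9.09%) and none that fell.

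DNA replication genes, which act before mitosis, had a share of higher calls near that of all genes at 2 months, and likewise in tumour-free liver. Of 46 such genes, the 42 tested at 2 months gave 10 that rose (23.8%, against 22.3% of all genes) and 4 that fell (9.52%). At 9 months 45 were tested, with 8 that rose (17.8%, against 18.1%) and 5 that fell (11.1%) in tumour-free tissue, and 8 that rose (17.8%, against 13.8%) and 4 that fell (8.89%) in tumours. Mcm2, a subunit of the replicative helicase, rose by 2.20 at 2 months (adjusted p = 9.28e-06), 1.57 in tumour-free tissue (adjusted p = 0.0024) and 1.46 in tumours (adjusted p = 0.021). Mcm10, which helps to fire the helicase, fell, with changes of -2.76, -2.16 and -3.47 in the same order (adjusted p = 4.28e-05, 3.55e-05 and 0.00194), and thymidine kinase Tk1 fell with changes of -1.71, -1.25 and -2.10 (adjusted p = 0.000678, 0.00184 and 0.000783). Of 6 genes for D-type cyclins and G1 kinases, 2 rose and 2 fell at 2 months and in tumour-free tissue, and 3 rose and 1 fell in tumours. Ccnd1, cyclin D1, rose by 2.30 at 2 months (adjusted p = 6.75e-05), 0.78 in tumour-free tissue (adjusted p = 0.00596) and 2.15 in tumours (adjusted p = 0.0295). Of the inhibitors of cyclin-dependent kinases, 3 of 6 tested rose at 2 months, while tumour-free tissue had 3 of 7 and tumours had 4 of 7, with none lower. Cdkn1a, or p21, rose by 3.08 at 2 months (adjusted p = 0.000234), 3.00 in tumour-free tissue (adjusted p = 0.000112) and 2.11 in tumours (adjusted p = 0.018). Of 14 transcription factors of the mitotic programme, 2 rose (15.4%) and 3 fell (23.1%) among the 13 tested at 2 months, the numbers were the same in tumour-free tissue, and 2 rose (14.3%) and 1 fell (7.14%) among the 14 tested in tumours. Rbl1, the p107 subunit of DREAM-type repressor complexes, rose by 1.82 at 2 months (adjusted p = 0.000122), 1.86 in tumour-free tissue (adjusted p = 0.00086) and 1.91 in tumours (adjusted p = 0.00749). Myc averaged 9.49 ± 4.49 CPM in 2-month mutants and 7.60 ± 3.44 CPM in 2-month controls (0.34, adjusted p = 0.533). It averaged 26.5 ± 15.3 CPM in tumours (1.42 ± 0.675, adjusted p = 0.172) and 17.9 ± 17.5 CPM in tumour-free tissue (0.87 ± 0.862, adjusted p = 0.482), against 9.81 ± 8.06 CPM in 9-month controls, with overlap in both.

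Among 15232 genes, those whose levels followed the mean of the 38 most closely over the 19 libraries were Ckap2l, Ncapg, Iqgap3, Cdc6, Fignl1 and Cdca8. Their correlations ran from 0.974 for Ckap2l to 0.955 for Cdca8 (Pearson, log2 CPM). Ckap2l averaged 1.44 CPM in 2-month mutants and 0.302 CPM in 2-month controls, and 2.85 CPM in tumours, 2.31 CPM in tumour-free tissue and 0.720 CPM in 9-month controls. The order of its means was that of most mitosis genes. All 38 genes matched GENCODE M21 by identifier and version, and 26 share no exon with another gene. Of the rest, Ccna2, Cdc20, Kif20a, Kif4, Nusap1 and Prc1 overlap exons of an expressed gene on the other strand. The libraries were strand-specific, but the sources used here do not say whether counting used the strand, so part of the counts of these 6 genes could come from the partner.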

How the data were processed

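Poly(A) RNA of 19 libraries was read from strand-specific libraries, per the labels' protocols. The authors deposited 1 table of whole-number counts per gene, with no sign of normalisation. Tools named in the submitters' processing notes are DESeq2 1.22.2, bedtools 2.27.1, RSEM and STAR 2.6.1a, and the build named is GRCm38, with no roles and no annotation release. If the counts are rounded RSEM estimates, low values rest on estimated reads. Total counts ran from 14.3 to 22.1 M (mega) per library, and 3 counts equalled 0.115 to 0.237 CPM. Floors cover counting error only.

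Every comparison had its own fit over the whole table, on the groups compared, with edgeR 4.0.16 in R 4.3.3 (expression filter, TMM scaling, robust quasi-likelihood test), the 2 tumours of mutant 1 summed. Genes were called at a Benjamini-Hochberg adjusted p under 0.05 over all genes tested, and SE is the fit's standard error of a log2 change. Levels are given as CPM after TMM over the 19 libraries. Members and gene lists were chosen with earlier results of these data known. Genes given in every library were the 6 with the smallest adjusted p in each comparison with controls, and Mki67, Top2a, Ccnb1, Cdk1 and Foxm1; the lists supply up to 4 genes a direction. Spc25, Nek2, Cenpa, Cdc20 and Cenpe were given beyond that rule in comparisons where it does not name them, after their values were seen. Promoter windows came from RefSeq on GRCm38.p6, positions and exon lengths from GENCODE M21.

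Alternatives were DESeq2 1.42.0, scaling by RLE or by library size alone, no filter on low genes, a single fit of 5 groups, the 4 tumours as separate libraries, a replicate block, and each animal left out. The edgeR fits were tested on simulated counts with known changes. Deviations of tumour and tumour-free samples of the same animal had a correlation of 0.00449 to 0.293 across genes. These are paired by animal, and no call of a mitosis gene changed with the animal as a block (over all genes 1 was called with it and 2 without).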

Additional observations from a re-analysis of the deposited data

Results flagged for a closer look

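Each gene and the summed level were checked for a library far from the rest in the 2-month controls and in the 4 tumours, 78 groups of values in all. Of these 4 had one, and chance alone gives about 1 in 20 groups. Hmmr had 0.675 CPM in 2-month control 6 and 0.155 to 0.282 CPM in the other 5 controls. Ttk, a checkpoint kinase, had 1.31 CPM in the second tumour of mutant 1 and 0.998 to 1.04 CPM in the other tumours. Spc25 had 19.7 CPM in the first tumour of mutant 1 and 2.96 to 5.07 CPM in the other tumours, including the second from the same animal. Melk had 4.47 CPM in the tumour of mutant 3 and 1.04 to 1.27 CPM in the others, and the tumour-free tissue with its highest value, 2.72 CPM, came from mutant 1. What sets these libraries apart was not tested.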

How the results depend on the processing

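Shares of all genes called higher are given in brackets. At 2 months the 22 genes called higher (22.3%) became 22 with DESeq2 (22.7%), 24 with library size alone (39.5%) and 28 without the filter (11.9%). They became 29 in 1 fit over 5 groups (18.3%). With the replicate number as a block they became 15 (12.7%), which also ended the call of Spc25 (0 lower). With 1 animal left out they ran from 15 (16.5%, without mutant 3) to 27 (21.8%, without mutant 1). In tumour-free tissue the 10 called (18.1%) became 24 with library size alone (39.8%), 17 in 1 fit over 5 groups (17.4%) and 17 with the replicate block (18.6%). They became 2 without all 9-month libraries numbered 1 (17%), and 2 to 25 with 1 animal left out (12.6% to 17.5%). In tumours the 20 called (13.8%) became 27 with DESeq2 (16.9%), 29 with library size alone (32.5%) and 29 in 1 fit over 5 groups (23.8%). They became 1 without the libraries numbered 1 (6.32%), and 2 to 24 with 1 animal left out (5.1% to 14.3%). Between the controls the 0 called (7.29%) became 2 with DESeq2 (9.15%), 1 without the filter (3.77%) and 2 in 1 fit over 5 groups (4.54%). With 1 animal left out 0 to 4 were called (4% to 8.16%). No other call count of the mitosis genes moved by over 1.5 times. Over all genes, 5883 were called at 2 months and 3290 with the replicate block, 3593 in tumours over controls and 6612 in 1 fit over 5 groups, 2 in tumours over tumour-free tissue and 442 with DESeq2, and 1616 between the controls and 384 with the replicate block. For the change of the mutant effect, 223 genes for tumour-free tissue and 385 for tumours became 534 and 866 with DESeq2, and 54 and 4 with the replicate block. Not every same-numbered pair deviated together (correlation of -0.265 to 0.284 at 2 months, -0.0354 to 0.343 in tumour-free tissue, -0.0290 to 0.130 in tumours and -0.157 to 0.166 between the controls), and in none of these comparisons did every library correlate best with its own number, so the number pairs only samples of the same mutant.

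Library size alone shifts the median of all genes by 0.29, 0.42 and 0.48 (log2) at 2 months, in tumour-free tissue and in tumours, and raises the share of higher among all calls to 77.7%, 82.9% and 85.1%, against 52.1%, 51.9% and 54.9% with TMM. Signs turned only for genes not called, and Spc25 in tumours. Cenpa changed by 0.0176 at 2 months and 0.33 in tumour-free tissue with library size alone, by -0.35 to 0.34 in tumour-free tissue with 1 animal left out, and in tumours by -0.11 (without mutant 1) to 0.73 with 1 left out and -0.39 without the libraries numbered 1. Birc5 changed by -0.14 at 2 months without mutant 3, and in tumour-free tissue by -0.21, -0.06, 1.12 and -0.34 without control 1, control 3, control 2 and the libraries numbered 1. With 1 animal left out, tumour-free tissue gave -0.0356 to 1.63 for Cdc20, -0.0337 to 0.55 for Nek2 and -0.0892 to 2.43 for Troap, each lowest without control 3 and highest without control 2. Spc25 in tumours changed by 0.43 with library size alone, 0.25 with the 4 tumours as separate libraries, and -0.80 (without mutant 1) to 0.33 with 1 mutant left out. The cause of these shifts was not tested. With 3 animals a group at 9 months and levels of a few CPM, changes larger than their SE could still miss the threshold.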

Other observations

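Per kilobase of exon, the median of the 38 genes was 0.312 CPM per kb in 2-month mutants and 0.107 CPM per kb in 2-month controls, and 0.720 CPM per kb in tumours, 0.432 CPM per kb in tumour-free tissue and 0.188 CPM per kb in 9-month controls. Ccnb2 was the highest gene on this scale in all 3 mutant groups (1.23 CPM per kb in 2-month mutants, 2.37 in tumours and 1.57 in tumour-free tissue), whereas Spc25 was the highest in both control groups (1.28 CPM per kb at 2 months and 2.10 at 9 months). The 3 genes least like the rest, Spc25, Cenpa and Nek2, made up much of the summed level in controls. Without them it averaged 57.2 ± 21.2 CPM in 2-month mutants (SD, n = 3) and 20.3 ± 2.38 CPM in 2-month controls (n = 6), and 118 ± 6.90 CPM in tumours, 78.5 ± 18.2 CPM in tumour-free tissue and 34.9 ± 23.4 CPM in 9-month controls (n = 3 each). This leave-out was chosen after the values were seen.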
